A study of Homo sapiens with 10 samples.

Results

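The tight junction and polarity genes examined here are PARD3, PARD6B, TJP1, OCLN, CGN, CLDN1, CLDN4, CLDN7 and F11R, 9 genes whose products seal and polarise epithelial cells. Their open chromatin was taken as every ATAC-seq peak lying in the RefSeq gene body of a member or within 50 kb of either end of it. In the lists of the GATA6 degron line these peaks merged into 197 of 120452 regions, and in the lists of the knockout and unedited cells into 216 of 157584 regions. ATAC-seq marks open chromatin by the insertion of sequencing adapters with a transposase, and it was run by the Omni-ATAC method on 50000 viable DLD-1 cells per library. DLD-1 is an established human colorectal adenocarcinoma line.

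The study removed GATA6, a zinc-finger transcription factor of gut epithelium, in a fast and in a lasting way, and each of its 5 groups had 2 libraries. In the degron line (genotype label GATA6-AID-IAA7) GATA6 carries a tag that lets auxin (IAA) trigger destruction of the protein, and its clones were given 500 µM IAA, per the labels' protocol. AID_ctrl is labelled +Auxin with a time of 0 h and titled ctrl, and was read as untreated. AID_aux received auxin for 12 h. AID_wash carries the treatment label Wash and a time label of 1 with no unit. The knockout group (KO, genotype label GATA6-KO) was made with CRISPR/Cas9 and was set against unedited cells (WT). All groups share the DLD-1 background, the labels do not say how many clones lie behind the degron or the knockout libraries, and the degron and knockout comparisons share no library. Separate cultures for the replicates are not stated either, so their spread may be no more than technical.

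Tight junctions close the space between neighbouring epithelial cells. Claudins (CLDN1, CLDN4, CLDN7) and occludin (OCLN) are the membrane proteins of the seal, and claudins set which ions pass. JAM-A, the product of F11R, is an immunoglobulin-type adhesion protein of the same contacts. ZO-1 (TJP1) and cingulin (CGN) form the plaque that ties these proteins to actin. PARD3 and PARD6B are scaffolds of the PAR complex, which with atypical protein kinase C places the junctions and separates the apical from the basolateral surface.

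The lists differed in length, which bears on every count of calls. AID_wash replicate 1 was the shortest degron list, with 154150 peaks on chromosomes 1 to 22 and X against 173167 to 198493 in the other degron lists. WT replicate 2 was the shortest of all, with 65939 peaks, against 92814 in WT replicate 1 and 116231 to 130311 in KO. Depth is unknown, as no file counts reads, and a missing call shows only that no peak passed the threshold. As a check of the cell type, 7 of 9 intestinal epithelial markers had a peak at their start or at a gene end in all 10 libraries, with CDX1 called in 7 and VIL1 in 9. EPCAM, CDH1, KRT18, KRT19, CDX1 and VIL1 could be checked only at either gene end, where no share over all genes was taken. In the narrower start window described below, 46.5% of protein-coding genes with an entry were called in all 10. Among markers of blood, stroma, endothelium and neurons, PTPRC, PDGFRB, LUM and KDR had no call, COL1A2 was called in 8 libraries, and PECAM1 and CDH5 in 1 each. CD3E, SPI1, COL1A1, SNAP25 and RBFOX3 were called in all 10, where the first 4 of these could be checked only at either gene end. They make up 5 of the 13 markers of other cell types, so the check tells cell types apart only weakly. A peak at a gene end is not a measure of expression.

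Most of the open regions at the 9 genes were shared by every library of the degron line, and fewer by all libraries. Of the 197 degron regions 116 were called in all 6 degron libraries (58.9%, against 51.6% of all degron regions), and 91 were called in all 10 libraries (46.2%, against 37.6%). The longest genes held the most regions. PARD3, whose body spans 706 kb on chromosome 10 (34109561 to 34815296), had 56 degron regions, TJP1 (chromosome 15, 29699367 to 29969049) had 31, whereas OCLN (chromosome 5, 69492547 to 69558104) had 10, the fewest of the 9. Per 100 kb the densest loci were CLDN4 (chromosome 7, 73830996 to 73832690) with 18.7 regions and CLDN7 (chromosome 17, 7259903 to 7263213) with 17.4. CGN followed with 14.8, F11R with 14.3, PARD6B with 12.3, CLDN1 with 9.42, TJP1 with 8.39, PARD3 with 6.95 and OCLN with 6.04. The windows of the short genes also hold neighbours, among them 11 other protein-coding genes at CLDN7 and 5 at F11R, so a region counted there need not belong to the member.

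**Figure D1:**
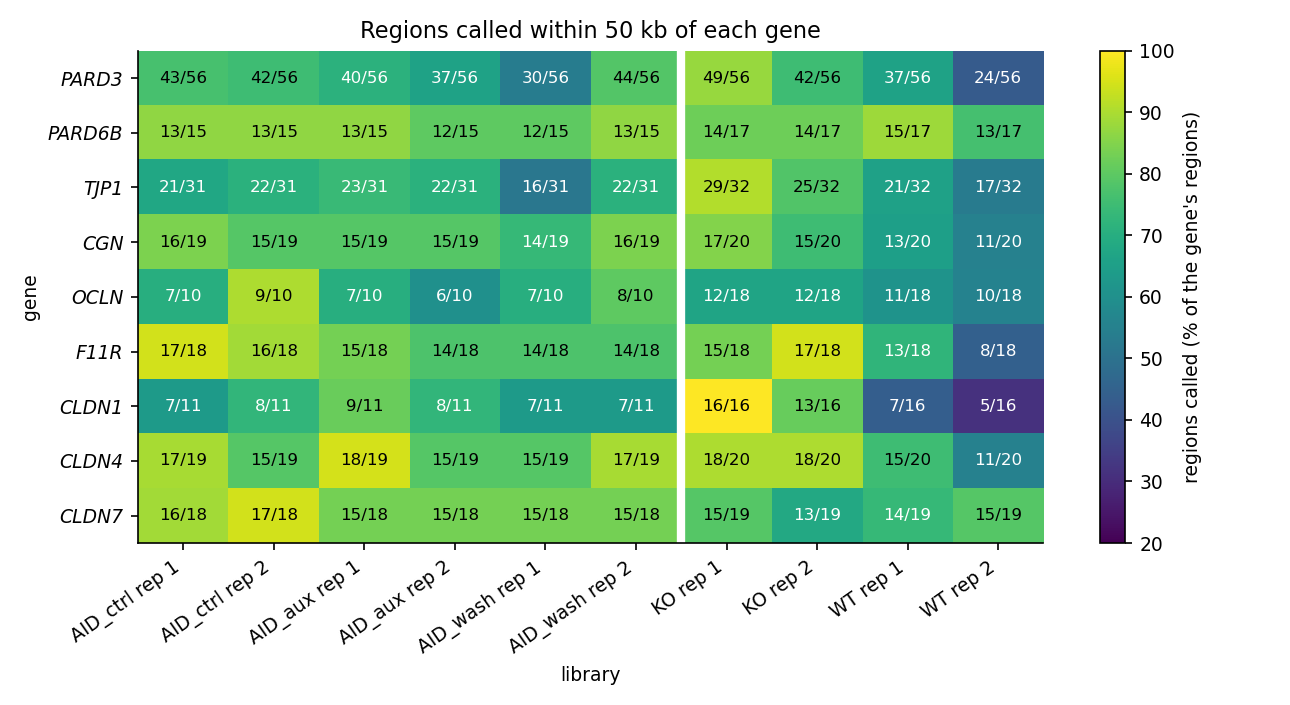
Number of regions called in each library out of all regions within 50 kb of each gene, with colour giving the percentage, for the 6 degron libraries (left of the gap) and the KO and WT libraries (right). CLDN1 has 16 and 13 of 16 regions called in KO and 7 and 5 in WT, and WT replicate 2 is low at most genes.

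Library by library, AID_ctrl called 157 and 157 of the 197 regions, AID_aux 155 and 144, and AID_wash 130 and 156. KO called 185 and 169 of the 216 regions of its lists and WT 146 and 114. Thus KO called 85.6% and 78.2% of these regions and WT 67.6% and 52.8%, beside 82.0% and 73.0% in KO and 57.3% and 40.5% in WT over all regions of those lists. At PARD3, AID_wash replicate 1 called 30 of 56 regions and the other degron libraries 37 to 44. At PARD6B (chromosome 20, 50731580 to 50753741) the 6 degron libraries were nearly alike, with 12 or 13 of 15. With 2 libraries against 2, the smallest two-sided p of an exact permutation test is 0.333, so no p-value is given for any comparison.

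The start of each gene was looked at first, as the RefSeq window of 250 bases before to 50 after a transcription start. PARD3, PARD6B and F11R have no entry in that table and were read within 1000 bp of either end of the gene. By this measure 8 of the 9 members were called in all 10 libraries. PARD3, PARD6B and F11R were read in wider windows, for which no share over all genes was taken. By the start window alone, 46.5% of 15811 protein-coding genes with an entry were called in all 10 libraries. Of the 6 members with an entry, all were but OCLN. Its region chr5:69492147-69494269 was called in all 6 degron libraries, but the 500-bp windows of the KO and WT lists reached the start window only in WT replicate 2. Within 1000 bp of the start all 10 libraries, both KO libraries included, had a call at OCLN.

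The sequences before the starts are shown for the members whose start regions differ in calls or in sequence motifs. They come from RefSeq (GRCh38.p14), run 5′ to 3′ on the strand of the gene, and end at the base before the transcription start. Capitals mark the motifs searched on both strands: GATA (the letters GATAA or GATAG after an A or a T), the E-box bound by Snail-type repressors (CACCTG), and the site of grainyhead-like factors (AACCNGTT). A match on the other strand appears as its reverse complement. The motifs do not overlap each other in these sequences.
TJP1 outer start, chr15:29969050-29969299, minus strand: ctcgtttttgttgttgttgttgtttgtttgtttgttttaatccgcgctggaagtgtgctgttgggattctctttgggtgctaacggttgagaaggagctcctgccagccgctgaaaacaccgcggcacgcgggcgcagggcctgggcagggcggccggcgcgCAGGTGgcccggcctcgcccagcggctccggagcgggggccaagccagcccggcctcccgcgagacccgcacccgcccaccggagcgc
TJP1 inner start, chr15:29822469-29822718, minus strand: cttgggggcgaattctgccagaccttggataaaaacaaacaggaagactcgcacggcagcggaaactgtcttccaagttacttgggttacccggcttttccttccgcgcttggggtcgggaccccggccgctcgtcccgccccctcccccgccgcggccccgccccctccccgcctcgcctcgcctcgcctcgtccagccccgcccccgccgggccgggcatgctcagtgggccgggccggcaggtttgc
OCLN outer start, chr5:69492297-69492546, plus strand: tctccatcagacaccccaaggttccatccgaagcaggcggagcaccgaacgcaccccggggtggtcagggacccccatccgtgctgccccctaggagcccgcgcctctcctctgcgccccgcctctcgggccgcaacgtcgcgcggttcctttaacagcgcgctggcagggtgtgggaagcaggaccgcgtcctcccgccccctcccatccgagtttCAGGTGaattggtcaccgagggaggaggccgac
CGN, chr1:151511137-151511386, plus strand: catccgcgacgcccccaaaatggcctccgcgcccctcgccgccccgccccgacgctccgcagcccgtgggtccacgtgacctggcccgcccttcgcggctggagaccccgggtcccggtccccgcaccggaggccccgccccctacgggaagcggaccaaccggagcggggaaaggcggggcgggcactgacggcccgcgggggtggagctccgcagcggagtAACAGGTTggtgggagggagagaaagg
CLDN4, chr7:73830746-73830995, plus strand: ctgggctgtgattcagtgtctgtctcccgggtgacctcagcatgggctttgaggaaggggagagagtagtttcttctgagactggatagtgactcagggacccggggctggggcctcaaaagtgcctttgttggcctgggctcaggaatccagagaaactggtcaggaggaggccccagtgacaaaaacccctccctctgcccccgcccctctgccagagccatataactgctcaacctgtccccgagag
CLDN7 inner start, chr17:7262479-7262728, minus strand: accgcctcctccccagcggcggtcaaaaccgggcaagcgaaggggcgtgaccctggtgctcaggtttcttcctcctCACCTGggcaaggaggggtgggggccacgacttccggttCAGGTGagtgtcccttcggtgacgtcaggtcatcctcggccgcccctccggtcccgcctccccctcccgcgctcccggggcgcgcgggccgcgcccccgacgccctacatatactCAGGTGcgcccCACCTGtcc

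TJP1 has 4 RefSeq starts, and the data separate them. The outer start was called in none of the 10 libraries, whereas the inner start, within the gene body of TJP1, lay in a region of 2118 bp (chr15:29821409-29823526) called in all 10. Upstream of the outer start the sequence holds 1 Snail-type E-box, and upstream of the inner start it holds none. Of the remaining TJP1 starts, that at 29821479 lies in the same degron region, but no WT or KO window reached it. The start at 29820674 had no call in any library. Neither has an E-box upstream, so calls and E-boxes do not pair off over the TJP1 starts. CLDN7 had 4 such E-boxes in the 250 bases before its inner start and none before its outer start. Both CLDN7 starts lay in the same degron region (chr17:7262197-7263443), but the KO and WT windows reached only the inner one. OCLN had 1 E-box before each of its starts. The E-box occurred in 17.5% of 34961 RefSeq promoter windows of the same length.

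CGN had the grainyhead-type site, which was found in 1.49% of these windows. Grainyhead-like factors are known activators of epithelial junction genes. No member with an entry had a GATA motif in any of these windows, and 22.3% of all windows had at least 1. CLDN1 and CLDN4 had none of the motifs. A match of letters is not a bound site, and the absence of letters in these short windows bears on no factor.

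Among the start regions the height of the signal within a list differed by gene. The fold enrichment is the authors' own value for a peak within its list, given here for the highest peak of the region, and no change between lists is read from it. F11R, read at its upper end (chr1:161020645-161022267), had 12.3 and 12.1 in AID_ctrl, 12.4 and 12.8 in AID_aux, and 12.0 and 14.3 in AID_wash. CLDN1 (chr3:190321664-190322690), a barrier claudin, had 9.92 and 13.0 in AID_ctrl, 11.8 and 11 in AID_aux, and 10.6 and 9.89 in AID_wash. These genes stood near or above the median of all regions over a RefSeq promoter called in all 6 libraries, which was 9.48 to 10.0.

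OCLN had 8.58 and 10.6 in AID_ctrl, 10.2 and 8.65 in AID_aux, and 9.68 and 9.96 in AID_wash, and the groups overlapped. The inner TJP1 start had 8.27 and 8.37 in AID_ctrl, 7.82 and 6.98 in AID_aux, and 7.73 and 7.59 in AID_wash. All 6 lay below the median of promoter regions. PARD3, at its upper end (chr10:34813716-34816044, which also holds the start of the divergent transcript PARD3-DT), had 8.30 and 5.76 in AID_ctrl, 5.81 and 5.71 in AID_aux, and 6.31 and 6.86 in AID_wash.

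The remaining start regions were called throughout but ranked low. PARD6B (chr20:50730037-50732221) had 3.93 to 4.60 over the 6 libraries. CLDN7 had 3.62 to 4.08, CLDN4 (chr7:73830690-73831665) 3.17 to 4.11, and CGN (chr1:151511006-151512163) 2.62 to 3.67. The CGN region lay between the 2.55th and the 20.7th percentile of all peaks in its lists, and CLDN4 between the 11.1th and the 31.0th. All 4 genes thus had starts that every library called and that ranked low within each list.

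**Figure D2:**
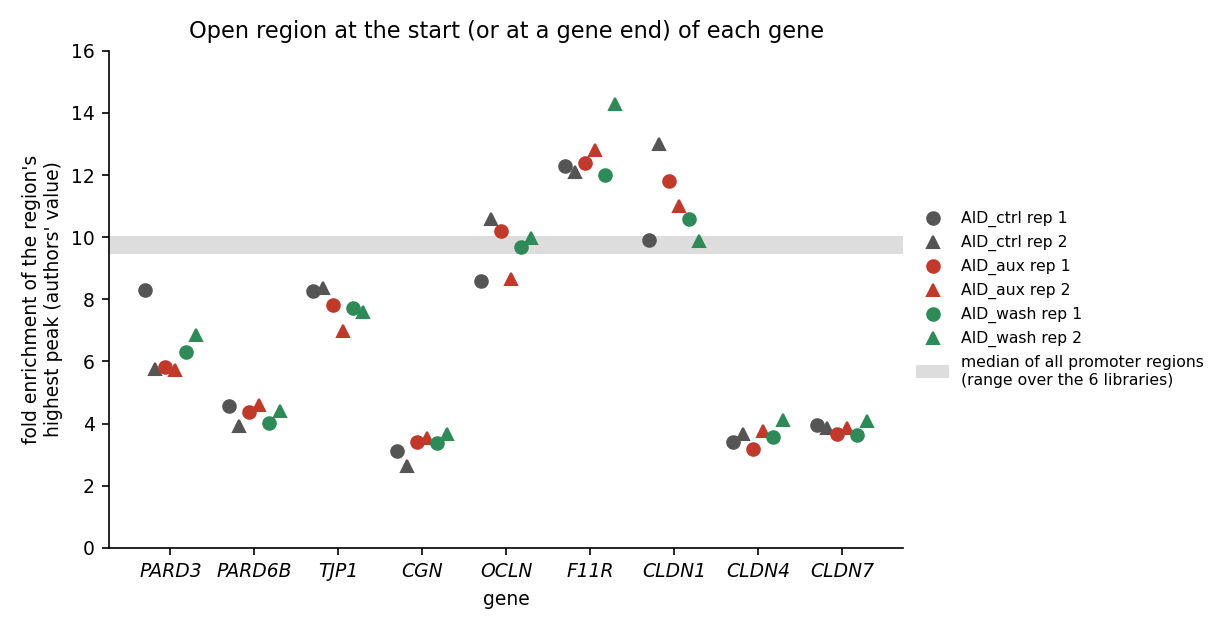
Fold enrichment (the authors' value) of the highest peak in the open region at the start of each gene, or at a gene end for PARD3, PARD6B and F11R, in each of the 6 degron libraries (grey AID_ctrl, red AID_aux, green AID_wash; circles replicate 1, triangles replicate 2). F11R and CLDN1 reach 9.89 to 14.3, and CGN, CLDN4, CLDN7 and PARD6B stay between 2.62 and 4.60. The grey band is the median of all promoter regions.

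Away from gene ends, the highest-enriched region that all 6 degron libraries called is given for each member. The highest of these was inside PARD3, 56.3 kb from its upper end (chr10:34758091-34759033), with 21.2 and 19.2 in AID_ctrl, 19.9 and 17.6 in AID_aux, and 16.3 and 20 in AID_wash, which put it at or above the 99.4th percentile of every list. A region 39.1 kb from CLDN1 and 23.8 kb from CLDN16 (chr3:190265751-190266584) had 17.1 to 18.0 in the 6 libraries. Inside TJP1, chr15:29843563-29845047 had 14.1 to 16.9. These values were all above those at the start regions of the same genes. The choice favours this, since each was picked as the highest of 26 (PARD3), 5 (CLDN1) and 15 (TJP1) distal regions.

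Further such regions lay 7.32 kb from PARD6B (chr20:50761060-50763207, 11.5 to 12.4), inside OCLN (chr5:69527265-69528578, 10.8 to 12.0), and 7.53 kb from CLDN4 (chr7:73822008-73823471, 9.51 to 12.0). The region chosen for CGN lies inside its neighbour TUFT1 (chr1:151569108-151570497, 10.6 to 14.8), and that for CLDN7 inside DLG4 (chr17:7214031-7215320, 6.68 to 9.04). The one for F11R lay 16 kb from the gene (chr1:160978008-160979233, 8.84 to 10.3), below the region at the upper end of F11R (12.0 to 14.3). The CLDN7 values lay below the median of all such distal regions in several lists (6.68 against 8.55 in AID_ctrl replicate 2). All 9 regions were chosen for their calls and enrichment in the degron line, and both KO and both WT libraries called them too. Over all degron regions, 62170 were called in all 6 degron libraries, and 45302 of these in all 10. The share among regions of like enrichment was not taken. Over all member regions called in all 6 libraries the median enrichment was 7.15 to 8.02, against 7.99 to 9.10 for all such regions.

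The first comparison asked what changed within 12 h of auxin. A region is called lost when neither library of the first group and both of the second call it, gained when both of the first and neither of the second do, and retained when every library of both groups does. AID_aux against AID_ctrl, 8 of 191 tested regions were lost (4.19%, against 2.36% of all regions tested) and 2 were gained (1.05%, against 2.58%), while 126 were retained (66.0%, against 59.6%). Of the losses 4 were at PARD3, 2 at F11R, 1 at TJP1 and 1 at OCLN. Of the gains 1 was at PARD3 and 1 at TJP1. PARD6B, CGN, CLDN1, CLDN4 and CLDN7 had 0 lost and 0 gained among 15, 18, 11, 18 and 18 tested regions. The totals moved with the lists used: 5 were lost once the lists were cut to equal length. Leaving out AID_aux replicate 2 gave 11 lost and 13 gained. Fewer regions were tested with either change, and the shares lost and gained over all regions moved too. The genes moved too: with equal lengths the losses were 2 at F11R and 1 each at PARD3, PARD6B and CLDN4, with 0 at TJP1 and OCLN. At a −log10 p of at least 10 they were 2 at PARD3, 2 at CLDN4 and 1 each at PARD6B, CGN and F11R. The difference from all regions was not tested.

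The losses were weak regions, as were losses over all regions. None of the 8 lay in the top 50% of both AID_ctrl lists by −log10 p, where 190 of all 2729 losses did (0.165% of all regions tested). Neither gain did so in AID_aux, where 10 of all 2974 gains did (0.00866% of all regions tested). Their median percentile by fold enrichment was 31.9, close to the 35.8 of all regions lost with auxin, against 69.0 for the members' retained regions. None was as near as 1000 bp to any gene end, where 4.1% of all lost regions and 27% of the members' retained regions lay. Their median width was 440 bp, against 494 bp for all lost regions and 1060 bp for the members' retained regions.

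PARD3, the scaffold that recruits the PAR complex to junctions, held 4 losses in the lists as deposited and 1 in lists of equal length. By share of tested regions its 7.55% lay below F11R (11.1%) and OCLN (10.0%), where 2 and 1 regions were lost. Its region 296 kb from the lower end of the gene (chr10:34405675-34406167) had no call in either AID_aux library and enrichments of 4.75 and 6.51 in AID_ctrl. AID_wash called it again, at 4.63 and 6.41. The region at 318 kb (chr10:34427278-34427492) was called by neither AID_aux library, at 4.39 and 4.88 in AID_ctrl, and by neither AID_wash library. The same held for the region at 446 kb (chr10:34555709-34556096), with 4.32 and 4.07 in AID_ctrl.

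The fourth, at 558 kb (chr10:34667324-34668025), had no call in AID_aux, 5.13 and 3.55 in AID_ctrl, and 4.26 in AID_wash replicate 2 only. In the other direction chr10:34822141-34822761, 6.84 kb beyond the upper end, was called in AID_aux at 4.21 and 5.07 and by neither AID_ctrl library. AID_wash replicate 2 still called it, at 5.77. So 4 of 53 tested regions at PARD3 were lost and 1 gained (1.89%), while 32 were retained (60.4%, against 59.6% of all regions tested).

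**Figure D3:**
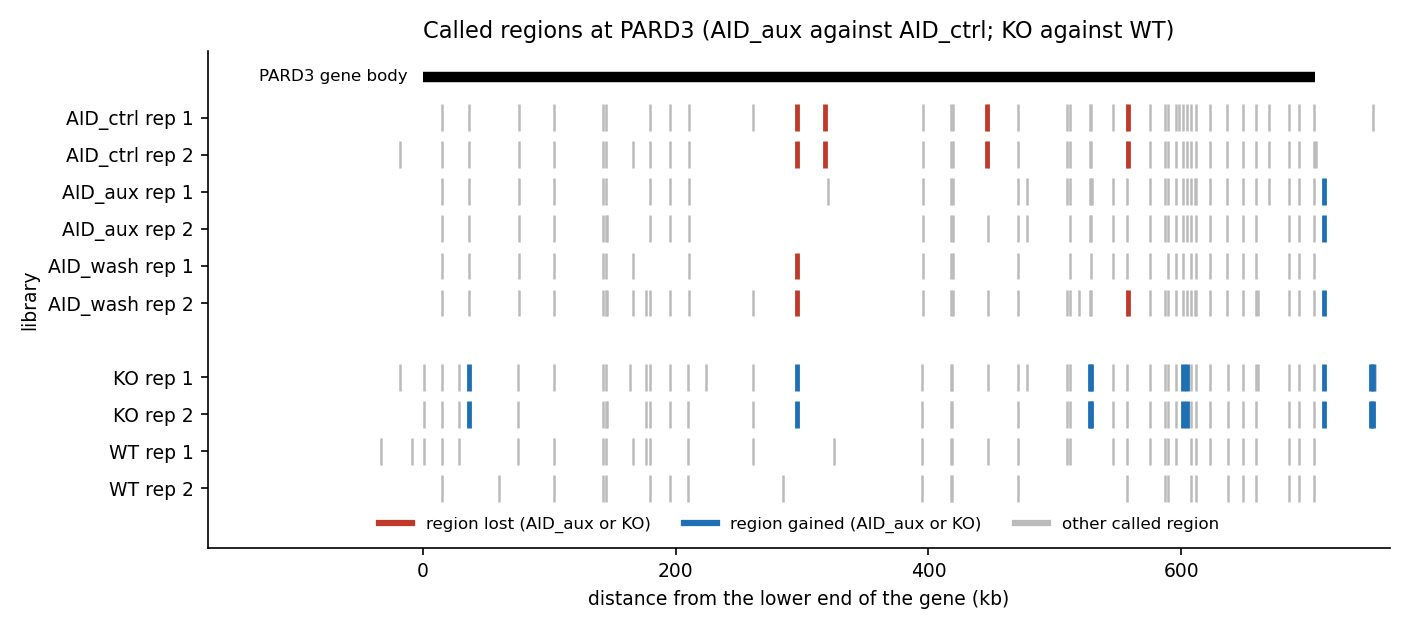
Called regions at PARD3 by library, placed by their distance in kb from the lower end of the gene, with the gene body as a black bar; red marks regions lost and blue regions gained, by AID_aux against AID_ctrl in the upper 6 rows and by KO against WT in the lower 4. The region at 296 kb is called in AID_ctrl and AID_wash but not in AID_aux, and in KO but not in WT.

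At F11R both losses lay outside the gene. The region 5.58 kb beyond its upper end (chr1:161026732-161027388) had no call in AID_aux, 4.63 and 4.80 in AID_ctrl, and 4.06 and 3.68 in AID_wash. The other, 45.0 kb away inside ITLN2 (chr1:160949979-160950187), had no call in AID_aux and 4.27 and 3.34 in AID_ctrl, and was the changed region of the degron line nearest to the 50-kb limit. At OCLN the lost region was 37.9 kb from the gene and nearer to MARVELD2, which encodes tricellulin (chr5:69453646-69454626; 4.02 and 4.17 in AID_ctrl). At TJP1 a region of 165 bp inside the gene was lost (chr15:29734670-29734834; 2.72 and 3.28 in AID_ctrl). The gained one (chr15:29939427-29939683) had 4.27 and 3.37 in AID_aux and no call in AID_ctrl.

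After washout 2 of the 8 lost regions were called by both AID_wash libraries, 3 by 1 of them and 3 by neither, which is 25% called by both where 32.4% of all regions lost with auxin were. The 2 that both called were the PARD3 region at 296 kb and the F11R region 5.58 kb from the gene. The gained regions at PARD3 and TJP1 were each called by AID_wash replicate 2 and not by replicate 1, the shortest degron list.

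Counted directly, AID_wash against AID_aux had 4 gained regions of 180 tested (2.22%, against 1.21% of all regions tested), 1 lost (0.556%, against 3.48%) and 118 retained (65.6%, against 57.4%). Strong regions among them numbered 0 in either direction. Over all regions 83 of 1356 gains were strong (0.074% of all regions tested) and 10 of 3897 losses (0.00892%). Besides the PARD3 region at 296 kb and the F11R region 5.58 kb from the gene, a region inside PARD3 at 166 kb was gained (chr10:34275586-34276069), with 4.21 and 5.13 in AID_wash and no call in AID_aux. The fourth was inside OCLN (chr5:69499671-69500243), with 3.43 and 2.64 in AID_wash. AID_ctrl replicate 2 called both of these and replicate 1 neither. The lost region lay 1.39 kb from F11R (chr1:161022538-161022723), with no call in AID_wash and 2.48 and 2.77 in AID_aux. Without AID_aux replicate 2 the counts turned to 15 lost and 7 gained, and without AID_wash replicate 2 to 14 and 5.

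AID_wash against AID_ctrl, 4 of 182 regions were lost (2.20%, against 2.67%) and 0 gained (0.0%, against 0.685%), with 121 retained (66.5%, against 60.0%). None of the 4 was strong, where 7 of all 2906 losses were (0.00643% of all regions tested). They were the PARD3 regions at 318 and 446 kb, the TJP1 region of 165 bp, and a PARD3 region at 669 kb (chr10:34778948-34779268), which had no call in AID_wash, 4.39 and 4.88 in AID_ctrl, and a call in AID_aux replicate 1 at 4.37. With lists cut to equal length 0 were lost and 2 gained, and without AID_wash replicate 1 the counts were 7 lost and 11 gained. These comparisons share libraries with the first and are not independent of it.

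**Figure D4:**
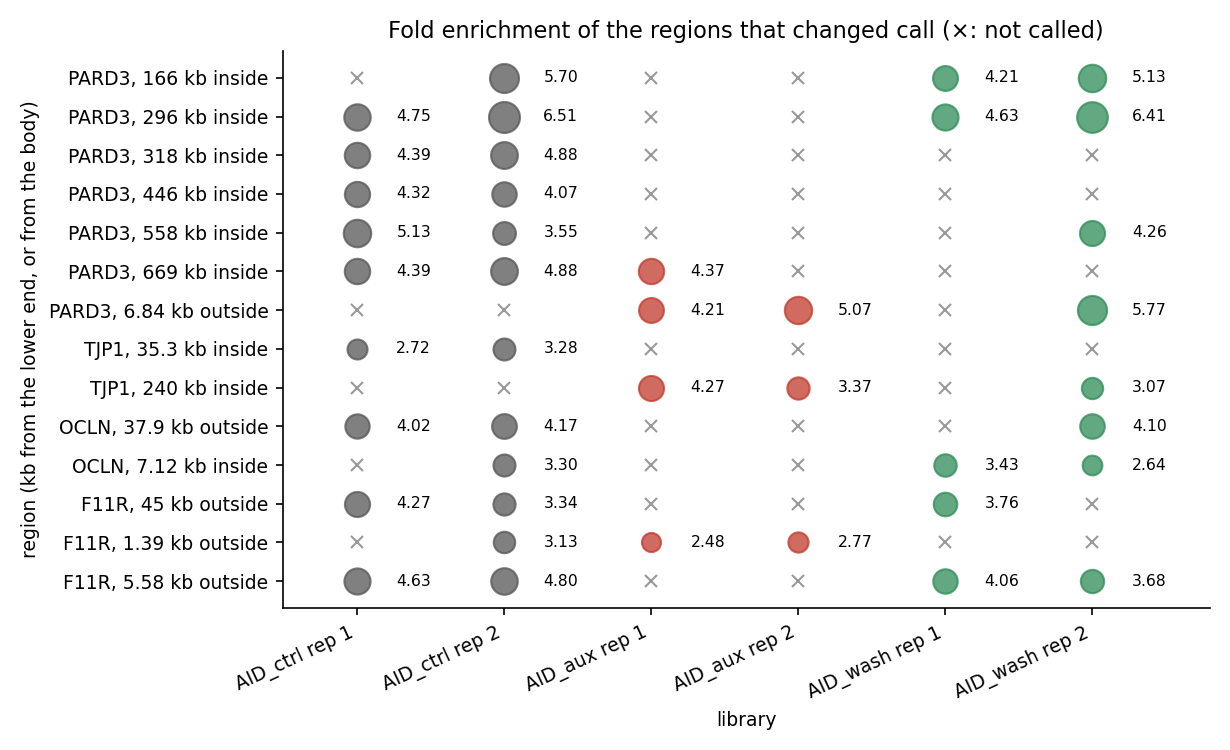
Fold enrichment (the authors' value, printed beside each circle and shown by its area) of the 14 member regions that were lost or gained in any comparison of the degron line, by library; a cross marks no call. The regions inside PARD3 at 296 kb and 5.58 kb outside F11R show calls in AID_ctrl and AID_wash and none in AID_aux, and enrichments lie between 2.48 and 6.51.

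Cells edited to lack GATA6 were then set against unedited ones. KO against WT, 35 of 216 tested regions were gained (16.2%, against 19.5% of all regions tested), 5 were lost (2.31%, against 1.24%), and 96 were retained (44.4%, against 31.9%). The difference from all regions was not tested, and WT had the shorter lists. Without WT replicate 2 the counts were 38 gained and 17 lost, and within the gene bodies alone 12 and 1 of 104. Of the 35 gained regions 10 overlapped calls of all 6 degron libraries (28.6%, against 10.5% of all gained regions) and 12 overlapped none (34.3%, against 41.1%). The 10 thus lacked a call in WT while the degron line, untreated or not, called them throughout.

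CLDN1 had the highest share of gains, 6 of 16 regions (37.5%), with 4 retained and 0 lost. KO called 16 and 13 of its regions and WT 7 and 5. The KO and WT counts did not overlap at 7 of the 9 genes, all but PARD6B and CLDN7. Over all regions they did not overlap either (KO called 82.0% and 73.0%, WT 57.3% and 40.5%). The share of all genes without such overlap was not taken, and WT had the shorter lists. The gained regions at 1.27 kb (chr3:190303875-190304436) and 2.87 kb (chr3:190302334-190302835) lay beyond the lower end of the gene, and chr3:190306618-190307653 lay inside it near the same end. The others were 35, 45.1 and 47.2 kb from CLDN1 (chr3:190357407-190357974, chr3:190260122-190260630 and chr3:190369651-190370174). All but chr3:190260122-190260630 lie in the RefSeq gene body of CLDN16, a kidney claudin whose gene spans this locus. Of the 6, 4 had no call in any degron library, and the other 2 were called by 1 and by 2 of them.

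At PARD3 9 regions were gained and 0 lost, among 56. The 6 nearest to its upper end were chr10:34822106-34822686, 6.81 kb outside, chr10:34859232-34859758 and chr10:34861443-34861943, 43.9 and 46.1 kb outside, and inside the gene chr10:34713785-34714380, chr10:34710551-34711053 and chr10:34638245-34638777. The first of these overlaps the region gained with auxin. The PARD3 region at 296 kb, lost with auxin, had calls in both KO libraries and in neither WT library.

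TJP1, F11R, CLDN4 and CGN had 4 gained regions each, of 32, 18, 20 and 20. At TJP1 2 were inside the gene (chr15:29788487-29789002 and chr15:29917555-29918146) with no degron call, 1 was 33.3 kb outside (chr15:29665544-29666049), likewise with none, and chr15:29693080-29693608, 5.76 kb outside, had calls in all 6. At CGN chr1:151516068-151516572 was inside the gene, and chr1:151542615-151543117 and chr1:151574873-151575448 were in TUFT1, and all 6 degron libraries called these 3. The fourth, chr1:151568597-151569119, was called by 2. It overlaps the end of the TUFT1 region chr1:151569108-151570497 given above, which both WT libraries called. At CLDN4 the gains lay 16.6 to 47.7 kb away, at chr7:73849309-73849809, chr7:73866081-73866587, chr7:73792411-73793031 and chr7:73880410-73880957.

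At F11R the gains were the ITLN2 region 44.9 kb away (chr1:160949829-160950328), a region at its lower end (chr1:160995255-160995897), and regions 12.5 and 31.7 kb outside (chr1:161033651-161034160 and chr1:161052816-161053319). Calls of WT windows lay 240 bp from the one at the lower end and 221 bp from the one 12.5 kb outside. OCLN had 2 gains (chr5:69449993-69450566 and chr5:69507100-69507624), and PARD6B had 1 (chr20:50715622-50716148).

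The 5 lost regions were at CLDN7 (2), PARD6B, CGN and OCLN. Those at CLDN7 lay 44.0 and 45.4 kb away at EIF5A (chr17:7307174-7307685 and chr17:7308568-7309148), with the only gained region of that locus between them (chr17:7307781-7308301). All 6 degron libraries called all 3, and the nearest KO window was 95 bp and 266 bp from the lost ones. The region lost 9.05 kb from PARD6B (chr20:50762787-50763287) had a KO window at 393 bp. It overlaps the distal region chr20:50761060-50763207 given above, which both KO libraries called. So 3 of the 5 losses had a KO window within 500 bp (60.0%, against 34.1% of all lost regions), and 3 of the 35 gains had a WT window that close (8.57%, against 6.54% of all gained regions). Where windows of 500 bp are placed side by side, a shift of the window and a change of the chromatin cannot be told apart. The other losses were 6.75 kb from CGN (chr1:151502891-151503422), with calls in 5 of the 6 degron libraries, and inside OCLN (chr5:69499822-69500447), with calls in 3. The OCLN one overlaps the region chr5:69499671-69500243 gained in AID_wash against AID_aux, which neither AID_aux library called. As AID_ctrl replicate 2 called that region and replicate 1 did not, it was not counted as lost with auxin.

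Set beside each other, the auxin and knockout comparisons shared 3 places at the members. The region 6.84 kb from PARD3 was gained in both. The PARD3 region at 296 kb and the ITLN2 region near F11R were lost with auxin and gained in KO, which is 2 of 8 losses, where 14.8% of all regions lost with auxin overlapped a gain in KO. Of all regions gained with auxin 37.2% did. Of the 8 regions lost with auxin, 4 had no call in any WT or KO library (against 28.8% of all regions lost with auxin). None of the 8 was lost in both, where 7.88% of all regions lost with auxin overlapped a loss in KO. With so few regions these shares do not set the 9 genes apart.

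**Figure D5:**
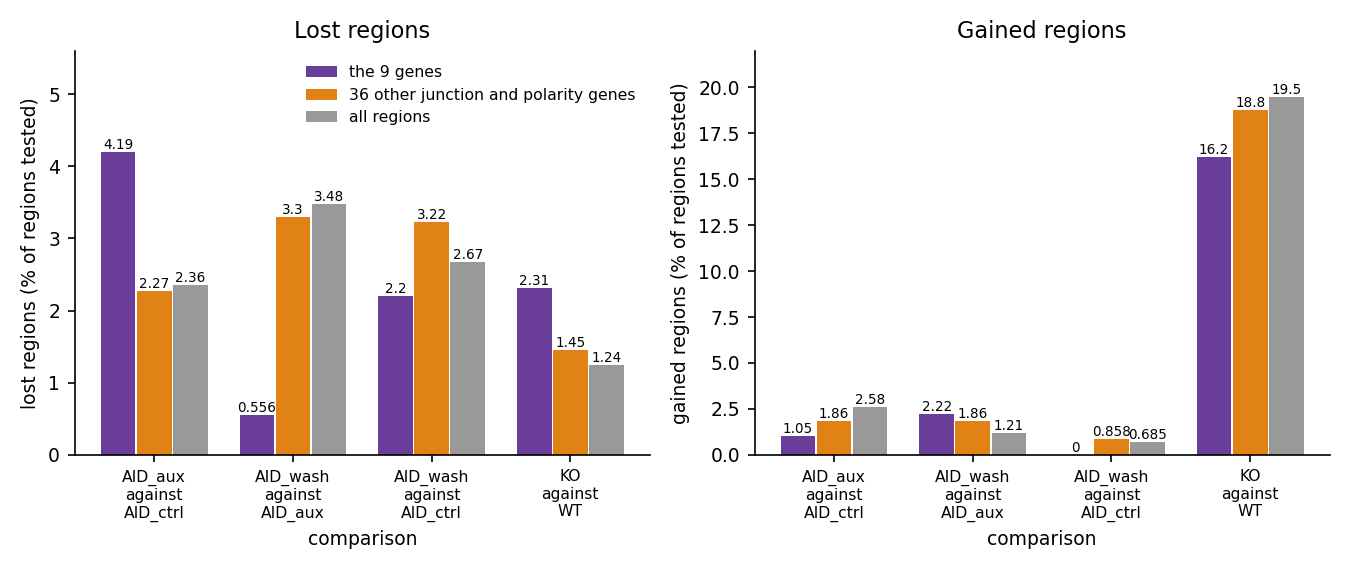
Percentage of tested regions that were lost (left) or gained (right) in each comparison, at the 9 genes (purple), at 36 other junction and polarity genes (orange) and over all regions (grey). The 9 genes stand above all regions for losses in AID_aux against AID_ctrl (4.19% against 2.36%) and below them for gains in KO against WT (16.2% against 19.5%).

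Other junction and polarity genes, 36 in all, were counted the same way and hold 510 degron regions that are not the members'. AID_aux against AID_ctrl, 11 of 485 were lost (2.27%) and 9 gained (1.86%), near the shares over all regions. KO against WT, 117 of 622 were gained (18.8%) and 9 lost (1.45%). Of these genes 24 had a call at their start or a gene end in all 10 libraries, among them MARVELD2, PRKCI and PRKCZ (the atypical kinases of the PAR complex), CRB3 and SCRIB. CLDN6, CLDN8, CLDN15, CLDN18, JAM2, JAM3 and MPDZ had none in any library. Between these stood CLDN5 with 1 library, CGNL1 with 7, LSR and PARD6A with 8 each, and PARD6G with 9. Within 1000 bp, as at OCLN, CGNL1, LSR and PARD6A had a call in all 10 libraries, and CLDN15 in 1. By that measure 27 of the 36 genes were called in all 10. No share over all genes was taken for these mixed windows. By the start window alone 46.5% of protein-coding genes with an entry were called in all 10.

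In that list 3 places were lost with auxin and gained in KO, near CLDN2, MPDZ and MAGI1, and places near TJP3, PARD3B, MAGI1 and MAGI3 were gained in both. No place in that list was lost in both. CLDN2 encodes the pore-forming claudin of leaky epithelia, and the region within 50 kb of it (chrX:106959982-106960238) had no call in AID_aux and 3.76 and 4.81 in AID_ctrl.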

How the data were processed

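ATAC-seq peak lists of 10 libraries in 5 groups of 2 were used. The submitters' processing notes name MACS2 2.1.1, Bowtie2 2.4.2, Picard, Trim Galore 0.6.10 and hg38, without parameters. Whether reads were shifted for the transposase or a blacklist applied is not given in the sources used here. For each peak the 6 degron lists, as deposited, carry coordinates, a score, a fold enrichment ratio, and −log10 values for p and q (smallest −log10 p 5.0). WT and KO lists, as deposited, hold only windows of 500 bp. These values are the authors' own and serve only to describe, rank or filter peaks within a list.

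On chromosomes 1 to 22 and X, peaks were merged where they overlapped or touched, over the 6 degron lists and over the 4 WT and KO lists separately. A library called a region when 1 of its peaks overlapped it by 1 bp. Regions tested in a comparison were those called by at least 1 of its 4 libraries. Gene bodies came from RefSeq (GRCh38.p14), without strand or exons, so exons, introns and UTRs were not told apart. RefSeq start sequences were found for 6 of the 9 members. Coordinates count from 1. Regions named are all that changed at a member (for PARD3 in KO, the 6 nearest its upper end), the start regions, and per member the highest-enriched region over 1000 bp from gene ends that all 6 degron libraries call. The merging and calling were tested on simulated data. Alternatives were other windows, overlaps, thresholds, list lengths and merges, and each library left out. Some genes of the lists are not reported here. The members and lists were chosen with earlier results of these data known. Python 3.11.15, numpy 2.4.6, pandas 2.3.3 and matplotlib 3.10.9 were used.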

Additional observations from a re-analysis of the deposited data

Results flagged for a closer look

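Among the member regions, 2 lost their calls with auxin in both libraries and gained calls in both KO libraries, so that the degron and the knockout comparison went in opposite directions. The difference itself was not tested. The PARD3 region on chromosome 10 starting at 34405675 had no call in AID_aux and fold enrichments of 4.75 and 6.51 in AID_ctrl, and was called in both KO libraries and in neither WT library. The region near F11R on chromosome 1 starting at 160949979 had no call in AID_aux and 4.27 and 3.34 in AID_ctrl, and was likewise called in both KO libraries and in neither WT library. Of all regions lost with auxin 14.8% overlapped a gain in KO. Gains in KO made up 19.5% of all regions tested, and WT has the shorter lists. The part of list length in these 2 results was not tested.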

How the results depend on the processing

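Of 121 recomputed totals over the 9 genes 68 stayed within 1.5 times the reported count, as did 787 of 1026 recomputed counts at single genes. The alternatives with strong regions only and with WT and KO intervals within 500 bp merged were chosen after seeing the data. The cause of the changes was not tested, beyond what each alternative does by construction. The number of tested regions changed with most settings, so the counts below are not shares. Over all regions the shares lost and gained rose in every comparison when any library was left out. With 50% cover they rose in each degron comparison. For these settings a higher count is thus not particular to the 9 genes.

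AID_aux against AID_ctrl lost 8 and gained 2. Lost regions were 5 in the gene body only, 5 with equal list lengths, 13 where peaks had to cover at least 50% of a region and 0 among strong regions. With equal list lengths fewer member regions were tested, and the share lost over all regions was slightly higher than in the lists as deposited. Gained regions were 1 in the gene body only, 4 with 100 kb on either side, 4 with 50% cover and 0 among strong regions. With a library left out, lost regions ranged from 11 to 20 and gained ones from 4 to 13, since fewer libraries have to concur, so that gains exceeded losses without AID_aux replicate 2 (11 lost, 13 gained).

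AID_wash against AID_aux lost 1 and gained 4. Lost regions were 0 in the gene body only, 2 with 100 kb, 5 with 50% cover, 2 with a −log10 p of at least 10, 4 in the top 50% of each list and 0 among strong regions. Gained regions were 8 with 50% cover, 2 with a −log10 p of at least 10 and 0 among strong regions. With a library left out they ranged from 3 to 15 lost and 5 to 15 gained. Losses exceeded gains without AID_aux replicate 2 (15 and 7), AID_aux replicate 1 (6 and 5) or AID_wash replicate 2 (14 and 5).

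AID_wash against AID_ctrl lost 4 and gained 0. Lost and gained were 9 and 5 with 50% cover, and 0 and 2 with equal list lengths, and 0 were lost among strong regions. With a library left out they ranged from 7 to 19 lost and 0 to 11 gained, and gains exceeded losses without AID_wash replicate 1 (7 lost, 11 gained).

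KO against WT lost 5 and gained 35. Lost and gained were 1 and 12 in the gene body only, 3 and 17 with 10 kb on either side, and 3 and 16 for regions nearest to the member. Lost regions were 2 where intervals within 500 bp were merged, with 31 gained. With a library left out they ranged from 5 to 17 lost and 38 to 63 gained; without WT replicate 2, the shortest list, 17 were lost and 38 gained. The WT and KO lists carry no p-value, so thresholds and equal lengths were not run there.

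Start regions were called in all 10 libraries at 9 members rather than 8 when up to 1000 bp from the start counted. No paired analysis was possible because calls of 2 libraries against 2 give no test for a block to enter. Sequencing depth is unknown, which limits every missing call.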
